A study of Homo sapiens with 4 samples.

Results

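The genes described here are the matrix metalloproteinases (MMP), the ADAMTS proteases and the tissue inhibitors of metalloproteinases (TIMP), taken as the rows of the count table whose symbol starts with MMP, ADAMTS or TIMP followed by a digit. The rule found 50 of 25369 rows, of which 25 were MMP, 21 ADAMTS and 4 TIMP rows. Protease or inhibitor genes made up 46 of them, and the other 4 were the pseudogenes MMP23A and ADAMTS7P1, the antisense RNA ADAMTS9-AS2 and MMP24-AS1, a gene on the strand opposite MMP24. The libraries hold poly(A)-selected RNA of H226, a cell line derived from a human squamous carcinoma of the lung, made with a strand-marking kit. In shp63 cells a doxycycline-inducible short hairpin RNA targeted p63, and in shControl cells an inducible hairpin was non-targeting. Both groups received 1 µg/mL doxycycline for 6 days, so the drug itself is common to both. Each group had 2 libraries that the submitters call independent biological replicates. Since each group rests on 1 hairpin, what comes from loss of p63 and what from the hairpin's other effects cannot be told apart.

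MMPs are zinc-dependent endopeptidases that are made as inactive precursors and that together can cut most proteins of the extracellular matrix. Some are secreted, and the membrane-type MMPs stay on the cell surface through a transmembrane segment or a lipid (GPI) anchor. ADAMTS enzymes are secreted proteases with thrombospondin repeats, several of which cut proteoglycans or trim procollagens. TIMPs bind the active site of these enzymes and block it. In squamous carcinomas these genes are studied for invasion and matrix turnover.

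Upstream sequences of 4 genes are shown in pairs that share a motif and moved in opposite directions. The pairs were picked with these directions known, and likeness of the whole sequences was not measured. MMP10 and MMP7 lie in the same gene cluster on chromosome 11 and moved in opposite directions, though the shControl level of MMP7 rests on 3 reads. MMP15 and TIMP3 have GC-rich upstream regions and also moved in opposite directions. Each sequence holds the 250 bases before the gene's RefSeq start (RefSeq table on GRCh38.p14), and the same letters were found once on their chromosome in GRCh37. The GRCh37 positions are chr11:102651360-102651609 on the minus strand for MMP10, chr11:102401479-102401728 on the minus strand for MMP7, chr16:58059408-58059657 on the plus strand for MMP15 and chr22:33197441-33197690 on the plus strand for TIMP3. Capitals mark TGANTCA, a looser form of the AP-1 core with any middle base, in the first pair. In the second pair they mark GGGCGG, the GC box, on either strand. The TGANTCA match was TGAATCA in MMP10 and TGAGTCA in MMP7.
MMP10: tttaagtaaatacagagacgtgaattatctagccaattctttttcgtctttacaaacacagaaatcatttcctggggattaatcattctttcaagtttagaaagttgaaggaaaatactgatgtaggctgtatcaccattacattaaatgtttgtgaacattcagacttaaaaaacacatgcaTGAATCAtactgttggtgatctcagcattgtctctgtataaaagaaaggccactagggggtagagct
MMP7: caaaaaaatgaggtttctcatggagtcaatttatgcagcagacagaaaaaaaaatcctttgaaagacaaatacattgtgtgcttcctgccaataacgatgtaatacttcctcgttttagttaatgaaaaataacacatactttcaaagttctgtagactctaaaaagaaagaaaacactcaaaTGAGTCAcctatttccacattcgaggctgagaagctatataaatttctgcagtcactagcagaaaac
MMP15: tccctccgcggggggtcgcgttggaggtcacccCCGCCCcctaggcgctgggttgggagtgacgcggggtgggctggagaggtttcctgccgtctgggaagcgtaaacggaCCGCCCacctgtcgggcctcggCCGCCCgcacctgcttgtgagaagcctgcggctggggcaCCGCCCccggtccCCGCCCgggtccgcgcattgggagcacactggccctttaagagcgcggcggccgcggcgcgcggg
TIMP3: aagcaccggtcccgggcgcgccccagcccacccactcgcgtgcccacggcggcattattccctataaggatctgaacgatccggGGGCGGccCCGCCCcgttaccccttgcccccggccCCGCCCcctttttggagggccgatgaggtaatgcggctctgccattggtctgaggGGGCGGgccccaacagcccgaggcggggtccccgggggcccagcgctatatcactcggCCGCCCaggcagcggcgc
MMP10 and MMP7 each had 1 TGANTCA match, whose first base lay at -67 from the RefSeq start in both. Both also had a TATAAA box, with its first base at -31 in MMP10 and at -30 in MMP7. MMP15 and TIMP3 each had 5 GC boxes, neither TGANTCA nor TATAAA, and 74.8% and 72.4% G or C. Upstream sequences were matched for 28 of the 50 rows. The rows without a sequence include MMP1, MMP2, MMP3, MMP9, MMP12, MMP13 and TIMP2, so no motif was searched for in them. TGANTCA was found in 4 of these 28 (MMP10, MMP7, ADAMTS12 and MMP20), against 6.57% of 35116 RefSeq upstream windows of the same length. GGGCGG was found in 19 of 28, against 42.6% of all windows, and TATAAA in 8 of 28, against 10.7%. All 3 motifs were searched on both strands. TGANTCA reads the same on both strands, and no match of one motif overlapped a match of another in the 4 sequences shown.

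The libraries summed to 53416511 and 51926832 counted reads in shp63 and to 53924761 and 52016366 in shControl. TP63, the targeted gene on chromosome 3, had 1596 and 1530 reads in shp63 and 7533 and 7364 reads in shControl, which is 4.46-fold lower in shp63 (log2 fold change -2.16, adjusted p = 2.28e-21, edgeR quasi-likelihood test with Benjamini-Hochberg adjustment over all tested genes). All 9 markers listed for squamous carcinoma and basal epithelium were tested. CDH1, EPCAM and KRT6A were higher in shp63 and TP63, KRT5, KRT14, KRT17, DSG3 and SOX2 were lower. SOX2 was close to absent in every library, with 1 and 3 reads in shp63 and 14 and 11 in shControl. The spread between the 2 libraries of a group was small (common biological coefficient of variation 0.0308), and 74.0% of the 14901 tested genes were called at an adjusted p under 0.05. An exact two-sided permutation test of 2 libraries against 2 cannot go below p = 0.333, so calls rest on the spread that edgeR shares across genes. In bulk RNA, fewer expressing cells and less RNA per cell cannot be told apart.

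Of the 50 rows, 29 had 10 or more counts in at least 2 libraries, and the same 29 passed the filter on low counts and were tested. Of these, 15 were higher and 13 lower in shp63, and ADAMTS16 did not pass the threshold. That is 28 of 29 called, beside 74.0% of all tested genes (36.9% higher and 37.1% lower). MMP1, MMP12, MMP24 and MMP7 reached 10 reads in both libraries of 1 group only, so their passing the filter and their difference are linked. Among the 25 tested rows with 10 or more reads in all 4 libraries 24 were called, 13 higher and 11 lower. A change beyond 1.5-fold (edgeR's glmTreat, adjusted p under 0.05) was called for 9 rows upward and 11 downward, beside 22.7% of all tested genes in either direction, of which 1894 rose and 1491 fell. The 2 groups of libraries did not overlap in any of the 29 rows, beside 86.4% of all tested genes. The median log2 fold change of the 29 rows was 0.41 and their median absolute log2 fold change 1.19, beside -0.01 and 0.36 over all tested genes.

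**Figure D1:**
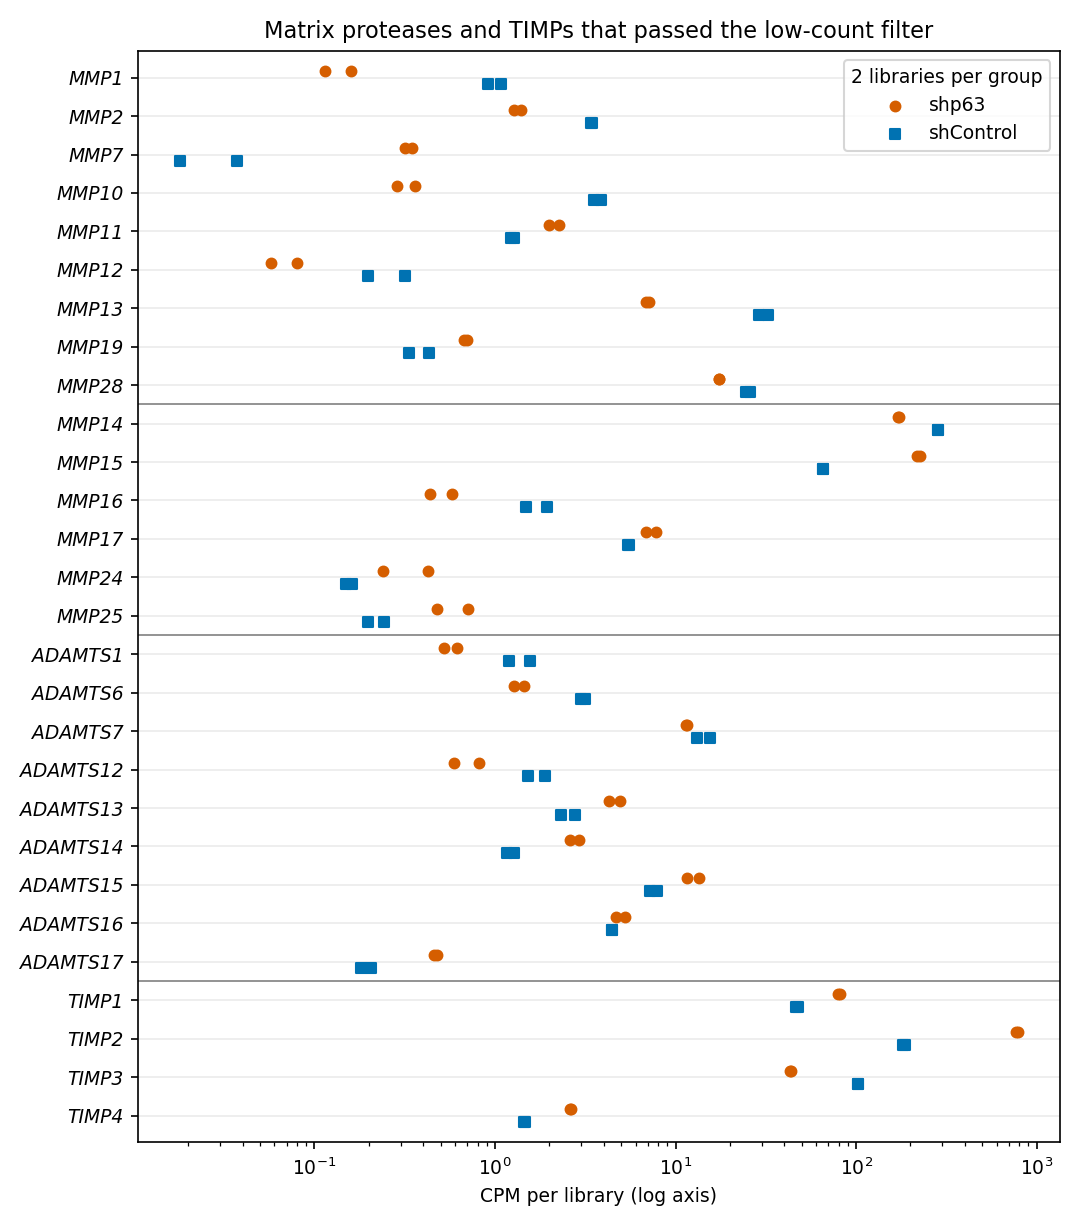
Level in CPM (log axis) in each library for the 28 protease and inhibitor genes tested, in shp63 (circles) and shControl (squares). Lines separate secreted MMPs, membrane-type MMPs, ADAMTS genes and TIMPs. The libraries of the 2 groups do not overlap for any gene, and TIMP2 reaches 786.8 CPM in shp63.

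All 4 TIMP genes were tested, and 3 rose in shp63 while TIMP3 fell, beside 36.9% higher and 37.1% lower of all tested genes. TIMP2, which blocks MMPs and also takes part with MMP14 in activating the MMP2 precursor at the cell surface, rose most. It had 40929 and 38414 reads in shp63 and 10081 and 10065 reads in shControl. Both shp63 libraries stood far above both shControl libraries, at 776.5 ± 14.6 CPM against 184.5 ± 3.83 CPM (SD, n = 2 each; CPM is the read count scaled to library size and composition). The log2 fold change was 2.07 (SE 0.033), a 4.21-fold rise, with adjusted p = 1.52e-22 (edgeR). TIMP2 lies on chromosome 17 from 76849059 to 76921469 on the minus strand (GRCh37).

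TIMP3, the inhibitor that binds to the matrix and also blocks ADAM17 and several ADAMTS enzymes, moved the other way. It had 2275 and 2161 reads in shp63 and 5681 and 5481 reads in shControl. The level was 43.4 ± 0.447 CPM in shp63 and 102.2 ± 0.353 CPM in shControl (SD, n = 2 each), 2.35-fold lower, with log2 fold change -1.24 (SE 0.04) and adjusted p = 2.48e-17 (edgeR). TIMP3 lies on chromosome 22 from 33197691 to 33259028, inside an intron of SYN3.

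TIMP1, a soluble inhibitor of most secreted MMPs, had 4126 and 4065 reads in shp63 and 2650 and 2507 reads in shControl. It rose 1.70-fold, to 80.2 ± 1.25 CPM in shp63 against 47.2 ± 0.818 CPM in shControl (SD, n = 2 each; log2 fold change 0.76, SE 0.042; adjusted p = 2.37e-13, edgeR). TIMP4, known best from heart, stayed scarce in both groups, with 138 and 131 reads in shp63 and 81 and 78 reads in shControl. It rose 1.81-fold (log2 fold change 0.85, SE 0.149; adjusted p = 2.53e-05, edgeR) but was not called beyond 1.5-fold (glmTreat adjusted p = 0.053). Its exons overlap SYN2 on the other strand, which had at most 5 reads in each library.

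Levels of different genes were set side by side per kilobase of the Ensembl canonical transcript. These lengths may differ from those counted, because no source used here gives the authors' annotation. On this scale TIMP2 was the highest TIMP in shp63, at 212.6 ± 3.99 CPM per kilobase, ahead of TIMP1 at 104.3 ± 1.62 CPM per kilobase (SD, n = 2 each). In shControl TIMP1 was highest at 61.4 ± 1.06 CPM per kilobase, followed by TIMP2 at 50.5 ± 1.05 CPM per kilobase (SD, n = 2 each). TIMP3 stood below both in each group, at 9.44 ± 0.0972 CPM per kilobase in shp63 and 22.2 ± 0.0768 CPM per kilobase in shControl. Summed over the 4 TIMPs the level per kilobase was 328.5 ± 2.49 in shp63 and 135.4 ± 0.0977 in shControl (SD, n = 2 each). Over the 23 MMP genes the same sum was 116.2 ± 1.90 in shp63 and 121.4 ± 1.07 in shControl, and over the 19 ADAMTS genes it was 7.23 ± 0.0148 in shp63 and 6.53 ± 0.44 in shControl. These sums are descriptions of level and were not tested.

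**Figure D2:**
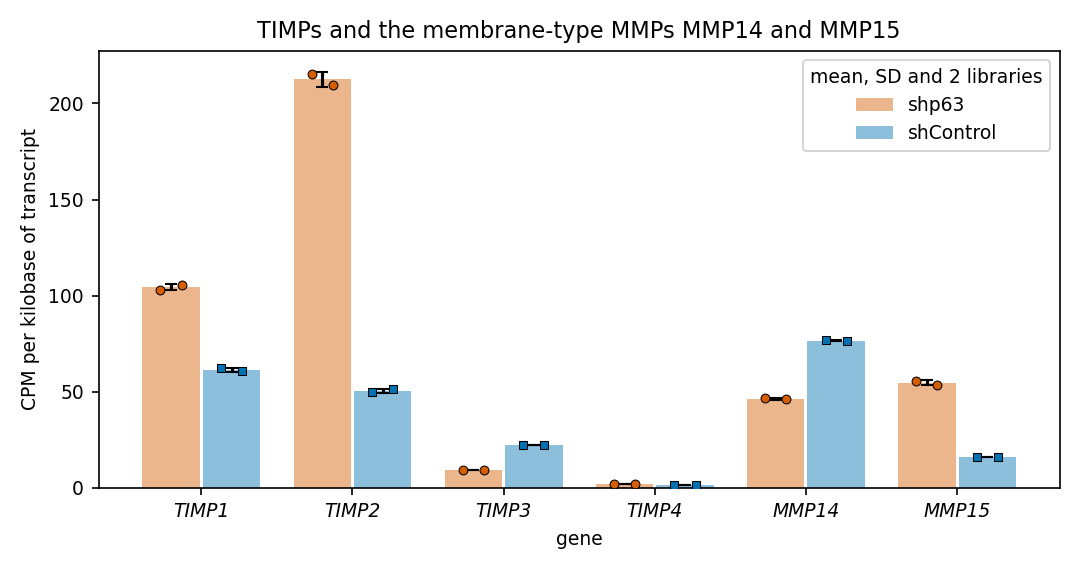
Level per kilobase of canonical transcript (CPM per kilobase, linear axis) of the 4 TIMPs, MMP14 and MMP15 in shp63 and shControl. Bars are means, whiskers SD and points the 2 libraries. TIMP2 stands at 212.6 in shp63 against 50.5 in shControl, and MMP14 and MMP15 change order between the groups.

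The membrane-type MMPs held most of the MMP reads and changed in both directions. All 6 were tested, with 4 higher and 2 lower in shp63, beside 36.9% higher and 37.1% lower of all tested genes. MMP14 (MT1-MMP), a collagenase of the cell surface and activator of the MMP2 precursor, had 8955 and 8530 reads in shp63 and 15733 and 15218 reads in shControl. It fell to 171.1 ± 1.42 CPM in shp63, against 283.4 ± 0.466 CPM in shControl (SD, n = 2 each; log2 fold change -0.73, SE 0.029; adjusted p = 8.91e-16, edgeR). MMP15 (MT2-MMP), its close relative, had 11763 and 10938 reads in shp63 and 3654 and 3542 reads in shControl. It rose 3.37-fold, to 222.1 ± 5.63 CPM in shp63 against 65.9 ± 0.00808 CPM in shControl (SD, n = 2 each; log2 fold change 1.75, SE 0.033; adjusted p = 1.77e-21, edgeR). The libraries of the 2 groups were far apart for both genes.

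Per kilobase of transcript MMP15 was the higher of the pair in shp63, at 54.7 ± 1.39 CPM per kilobase beside 46.2 ± 0.385 for MMP14 (SD, n = 2 each). In shControl MMP14 was the higher, at 76.6 ± 0.126 CPM per kilobase beside 16.2 ± 0.00198 for MMP15. The sum over the 6 membrane-type genes was 104.2 ± 2.14 CPM per kilobase in shp63 and 95.3 ± 0.0705 in shControl. The sum over the 17 secreted or other MMP genes was 11.9 ± 0.234 CPM per kilobase in shp63 and 26.0 ± 1.00 in shControl.

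The other membrane-type genes were much scarcer. MMP16 (MT3-MMP) had 30 and 22 reads in shp63 and 82 and 104 reads in shControl, a fall of 3.34-fold (log2 fold change -1.74, SE 0.23; adjusted p = 5.82e-07, edgeR). MMP17 (MT4-MMP), which is held by a GPI anchor, had 406 and 343 reads in shp63 and 303 and 298 reads in shControl. Its rise of 1.33-fold (log2 fold change 0.41, SE 0.092; adjusted p = 0.000363, edgeR) was not called beyond 1.5-fold. MMP25 (MT6-MMP), the other GPI-anchored member and a protease of leukocytes, had 37 and 24 reads in shp63 and 11 and 13 reads in shControl, with log2 fold change 1.43 (SE 0.342; adjusted p = 0.000756, edgeR). MMP24 (MT5-MMP), known from brain, had 22 and 12 reads in shp63 and 9 and 8 reads in shControl. Its call (log2 fold change 1.08, adjusted p = 0.0274, edgeR) was lost without shp63 replicate 1, where the log2 fold change was 0.61 and the adjusted p 0.383. It was also lost without shControl replicate 1 (adjusted p = 0.071) and without shControl replicate 2 (adjusted p = 0.0994), and in DESeq2 (adjusted p = 0.192).

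MMP24-AS1 was far more abundant than MMP24. It had 2365 and 2402 reads in shp63 and 1398 and 1510 reads in shControl, and rose 1.75-fold to 46.7 ± 1.73 CPM in shp63 against 26.7 ± 2.03 CPM in shControl (SD, n = 2 each; log2 fold change 0.81; adjusted p = 1.77e-12, edgeR). RefSeq lists this symbol as an older name of MMP24OS, whose exons overlap MMP24 on the other strand. The library kit marks strand, but no source used here gives the strand setting of the authors' counting. Without it, reads at the exon positions that MMP24 and MMP24-AS1 share cannot be told apart.

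The secreted collagenases MMP1 and MMP13, the stromelysin MMP10 and the elastase MMP12 fell in shp63, and the matrilysin MMP7 rose. MMP13 (collagenase 3), which cuts fibrillar collagen, was the most abundant of them. It had 355 and 357 reads in shp63 and 1792 and 1556 reads in shControl. It fell to 6.97 ± 0.209 CPM in shp63, against 30.6 ± 2.39 CPM in shControl (SD, n = 2 each; log2 fold change -2.14, SE 0.068; adjusted p = 1.73e-17, edgeR). MMP10 (stromelysin 2), an enzyme of migrating epithelial cells, had 15 and 18 reads in shp63 and 196 and 207 reads in shControl. Its fall of 11.4-fold (log2 fold change -3.50, SE 0.199; adjusted p = 5.01e-13, edgeR) was the largest among the tested genes of the family. MMP1 (interstitial collagenase) had 6 and 8 reads in shp63 and 51 and 58 reads in shControl, 7.18-fold lower (log2 fold change -2.84, SE 0.33; adjusted p = 8.33e-08, edgeR). MMP12 (macrophage elastase) had 3 and 4 reads in shp63 and 11 and 17 reads in shControl. Its call (log2 fold change -1.87, adjusted p = 0.00402, edgeR) was lost without shControl replicate 2, with an adjusted p of 0.0765, and in DESeq2, with an adjusted p of 0.071.

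MMP7 (matrilysin), a short MMP without the hemopexin domain that is made by glandular epithelia, had 18 and 16 reads in shp63 and 1 and 2 reads in shControl. The 2 groups did not overlap, but the shControl level rests on 3 reads in all. The ratio of summed reads, scaled to library size, was 12.1 with an exact 95% interval of 3.81 to 61.6 that covers counting error only. The adjusted p was 2.18e-05 (edgeR). Both shp63 libraries were still low, at 0.346 and 0.319 CPM.

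These genes are neighbours. MMP7, MMP20, MMP27, MMP8, MMP10, MMP1, MMP3, MMP12 and MMP13 lie in this order on chromosome 11 from 102391239 to 102826461 (GRCh37), a span of 435 kb, all on the minus strand. Of the 9 genes 5 were tested. MMP7, at the low-coordinate end, was higher in shp63, and MMP10, MMP1, MMP12 and MMP13, toward the other end, were lower. MMP7, MMP1 and MMP12 passed the filter through 1 group only, so their passing and their direction are linked. The shares of all tested genes were 36.9% higher and 37.1% lower. Between MMP7 and MMP10, MMP8 had 3 and 2 reads in shp63 and none in shControl. There MMP20 had at most 1 read in a library and MMP27 had none. MMP3, which stands between MMP1 and MMP12, had at most 1 read in a library. WTAPP1, whose exons overlap MMP1 and MMP3 on the other strand, had 1 and 0 reads in shp63 and 5 and 5 reads in shControl.

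**Figure D3:**
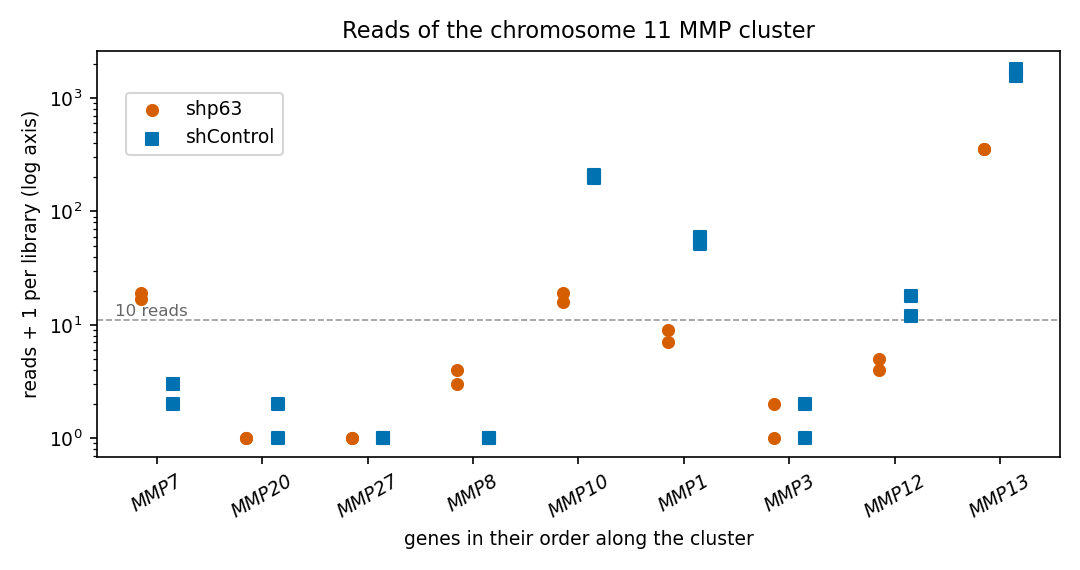
Reads plus 1 per library (log axis) for the 9 MMP genes of the chromosome 11 cluster, in their order along the chromosome, in shp63 (circles) and shControl (squares). The dashed line marks 10 reads. MMP10, MMP1, MMP12 and MMP13 are lower in shp63, MMP7 is higher, and the genes between MMP7 and MMP10 are near 0. MMP7, MMP1 and MMP12 reach 10 reads in 1 group only.

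Outside the cluster the gelatinase MMP2, which cuts denatured collagen and basement membrane, had 66 and 70 reads in shp63 and 192 and 183 reads in shControl. It fell to 1.33 ± 0.0901 CPM in shp63, against 3.43 ± 0.0414 CPM in shControl (SD, n = 2 each; log2 fold change -1.37, SE 0.145; adjusted p = 2.16e-08, edgeR). The other gelatinase, MMP9, had 1 and 2 reads in shp63 and 0 in both shControl libraries and was not tested. MMP28 (epilysin), known from keratinocytes, had 907 and 879 reads in shp63 and 1431 and 1319 reads in shControl. Its fall of 1.44-fold (log2 fold change -0.53, SE 0.053; adjusted p = 1.04e-08, edgeR) was not called beyond 1.5-fold. MMP11 (stromelysin 3), which is activated inside the cell by furin, had 103 and 114 reads in shp63 and 68 and 69 reads in shControl and rose 1.69-fold (log2 fold change 0.76, SE 0.165; adjusted p = 0.000301, edgeR), which was not called beyond 1.5-fold. MMP19 had 35 and 35 reads in shp63 and 24 and 18 reads in shControl (log2 fold change 0.83, adjusted p = 0.0111, edgeR). Its call was lost without shp63 replicate 2 (adjusted p = 0.0528) and without shControl replicate 2 (adjusted p = 0.099), and in DESeq2 (adjusted p = 0.125). MMP19 also shares exon positions with TMEM198B on the other strand, which had 697 to 916 reads in each library.

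**Figure D4:**
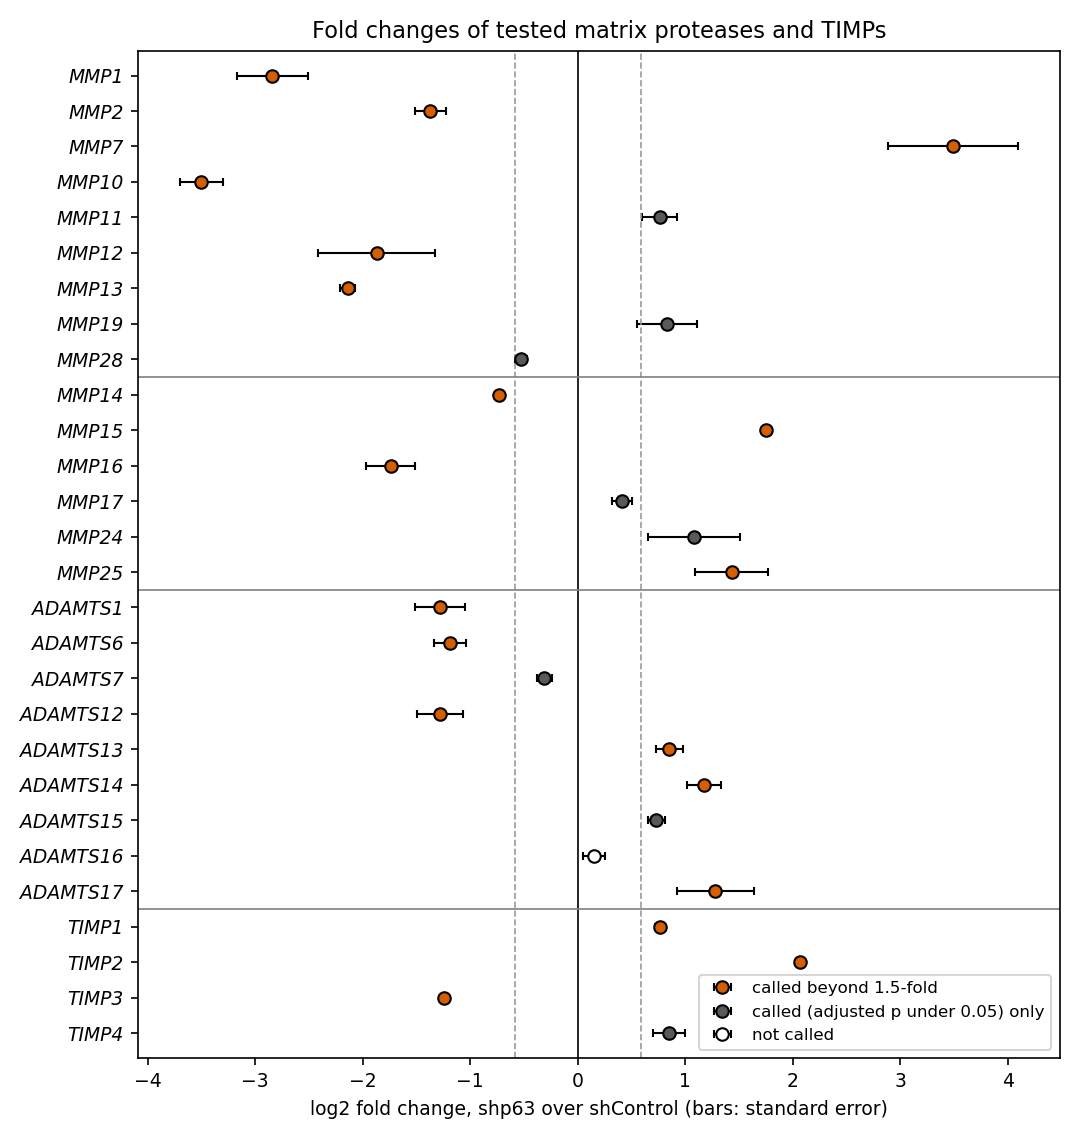
Log2 fold change of shp63 over shControl with its standard error for the 28 protease and inhibitor genes tested. Orange points were called beyond 1.5-fold (dashed lines), grey points were called at an adjusted p under 0.05 only, and ADAMTS16 (open) was not called. MMP10 lies lowest at -3.50 and MMP7, which rests on 3 shControl reads, highest at 3.49.

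Of the 19 ADAMTS genes 9 were tested, with 4 higher, 4 lower and 1 not called in shp63. The shares of all tested genes were 36.9% higher and 37.1% lower. Among the proteoglycan-cutting enzymes, ADAMTS15 had 600 and 671 reads in shp63 and 399 and 423 reads in shControl. It rose 1.65-fold to 12.5 ± 1.31 CPM in shp63 against 7.53 ± 0.476 CPM in shControl (SD, n = 2 each; log2 fold change 0.73, SE 0.082; adjusted p = 5.78e-08, edgeR), and was not called beyond 1.5-fold (glmTreat adjusted p = 0.0632). ADAMTS1, which cuts versican and aggrecan, had 27 and 31 reads in shp63 and 87 and 64 reads in shControl, 2.43-fold lower (log2 fold change -1.28, SE 0.23; adjusted p = 3.56e-05, edgeR). ADAMTS4, ADAMTS5, ADAMTS8, ADAMTS9 and ADAMTS20 of the same branch had at most 8 reads in a library. So the scarce ADAMTS1 and the more abundant ADAMTS15 moved in opposite directions.

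ADAMTS7 and ADAMTS12, which cut cartilage oligomeric matrix protein, both fell. ADAMTS7 had 605 and 574 reads in shp63 and 731 and 832 reads in shControl, a fall of 1.24-fold (log2 fold change -0.31, SE 0.074; adjusted p = 0.000689, edgeR) that was not called beyond 1.5-fold. Its pseudogene copy ADAMTS7P1 had at most 5 reads in a library. ADAMTS12 had 31 and 41 reads in shp63 and 105 and 82 reads in shControl, 2.42-fold lower (log2 fold change -1.28, SE 0.211; adjusted p = 1.27e-05, edgeR).

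ADAMTS14, which removes the amino-terminal propeptide of fibrillar procollagens, had 152 and 130 reads in shp63 and 65 and 69 reads in shControl, 2.25-fold higher (log2 fold change 1.17, SE 0.157; adjusted p = 7.80e-07, edgeR). Its relatives were nearly absent, with ADAMTS2 at 0 in every library and ADAMTS3 at 3 and 3 reads in shp63 and 7 and 13 reads in shControl. ADAMTS13, the plasma protease of von Willebrand factor, had 257 and 215 reads in shp63 and 129 and 150 reads in shControl, 1.81-fold higher (log2 fold change 0.85, SE 0.125; adjusted p = 2.68e-06, edgeR). VWF, the gene of its substrate, had 62 and 71 reads in shp63 and 267 and 242 reads in shControl and was 3.57-fold lower (adjusted p = 7.20e-11, edgeR).

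ADAMTS6 and ADAMTS17, both linked to fibrillin fibres, moved in opposite directions. ADAMTS6 had 66 and 72 reads in shp63 and 166 and 170 reads in shControl, 2.28-fold lower (log2 fold change -1.19, SE 0.15; adjusted p = 3.07e-07, edgeR). ADAMTS17 had 24 and 24 reads in shp63 and 10 and 11 reads in shControl (log2 fold change 1.28, SE 0.354; adjusted p = 0.00268, edgeR), a call that DESeq2 did not make (adjusted p = 0.0624). ADAMTS16 had 272 and 234 reads in shp63 and 247 and 240 reads in shControl, with log2 fold change 0.15 and a 95% interval of -0.06 to 0.37 (adjusted p = 0.193, edgeR).

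The 21 rows not tested had at most 13 reads in any library. Of these, 7 rows had 0 in all 4 libraries, namely ADAMTS2, ADAMTS5, ADAMTS10, ADAMTS19, ADAMTS20, ADAMTS9-AS2 and MMP27. A count of 0 allows up to 3 counts, which is 0.0577 and 0.0598 CPM in the shp63 libraries and 0.054 and 0.056 CPM in the shControl libraries, for counting error only. The other 14 were ADAMTS3, ADAMTS4, ADAMTS7P1, ADAMTS8, ADAMTS9, ADAMTS18, MMP3, MMP8, MMP9, MMP20, MMP21, MMP23A, MMP23B and MMP26. MMP23A and MMP23B are near-identical copies, so their 3 to 8 reads per library could be split between them. MMP23B also shares exon positions with CDK11B on the other strand, which had 625 to 776 reads in each library. MMP21 shares exon positions with EDRF1 on the other strand, which had 1070 to 1302 reads in each library.

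Activators of metalloproteinases, inhibitors other than TIMPs and genes with looser ties to these enzymes were next read from a mixed list. Of 14 listed genes 13 were tested, and 11 were higher and 2 lower in shp63, beside 36.9% higher and 37.1% lower of all tested genes. Their median log2 fold change was 1.09, beside -0.01 over all tested genes. TFPI2, a Kunitz-type inhibitor held in the matrix, rose 9.92-fold, to 490.0 and 518.3 CPM in shp63 against 49.7 and 52.0 CPM in shControl (adjusted p = 5.69e-25, edgeR). FURIN, the convertase that cuts the propeptide of membrane-type MMPs, MMP11 and many ADAMTS enzymes, rose 2.40-fold, to 295.6 ± 8.24 CPM in shp63 against 123.4 ± 1.69 CPM in shControl (SD, n = 2 each; adjusted p = 1.61e-19, edgeR). SPOCK1, a testican proteoglycan, rose 5.59-fold. RECK, a membrane-anchored MMP inhibitor, and LRP1, a receptor that clears MMPs and TIMPs, fell 1.26-fold and 1.28-fold (adjusted p = 0.00263 and 0.00971, edgeR).

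The plasminogen system, which also activates MMP precursors, had 11 of 12 genes tested, 8 higher and 3 lower, beside 36.9% and 37.1% of all tested genes (median log2 fold change 0.65). PLAUR, the urokinase receptor, rose 4.55-fold to 62.4 ± 1.57 CPM in shp63 against 13.7 ± 0.313 CPM in shControl (SD, n = 2 each; adjusted p = 3.52e-21, edgeR). PLGRKT, a plasminogen receptor, rose 1.57-fold. PLAT, tissue plasminogen activator, fell 1.59-fold, SERPINF2, the plasmin inhibitor, fell 1.57-fold and S100A10 fell 1.10-fold. PLG itself had 0 reads in every library.

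The ADAM family, whose members are mostly membrane-bound, is related to the ADAMTS enzymes, and not all of its members are active proteases. Of 15 ADAM genes 12 were tested, with 9 higher and 3 lower, beside 36.9% and 37.1% of all tested genes (median log2 fold change 0.55). ADAM8 rose 3.36-fold, ADAM12 rose 2.70-fold and ADAM9 rose 1.97-fold, while ADAM17, the sheddase that TIMP3 blocks, fell 1.13-fold (adjusted p = 0.000631, edgeR) and ADAM23 fell 1.16-fold. Of 7 ADAMTS-like proteins, which lack the protease domain, 5 were tested, and 3 were higher and 2 lower, beside the same shares. ADAMTSL3, ADAMTSL4 and THSD4 rose 3.44-fold, 1.37-fold and 3.16-fold, and ADAMTSL5 and PAPLN fell 1.29-fold and 1.36-fold.

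Of 16 other matrix-degrading enzyme symbols 14 were in the table and 13 were tested, with 9 higher, 3 lower and 1 not called, beside 36.9% higher and 37.1% lower of all tested genes (median log2 fold change 0.76). The cysteine cathepsin genes CTSL and CTSS rose 3.63-fold and 4.59-fold and ST14, the membrane serine protease matriptase, rose 2.10-fold, while CTSV and the heparanase gene HPSE fell 1.47-fold and 1.25-fold. Of 11 astacin protease and procollagen processing genes 8 were tested, with 4 higher, 3 lower and 1 not called (median log2 fold change 0.15). The same shares of all tested genes stand beside these counts. BMP1, the procollagen C-proteinase, rose 2.08-fold, and the lysyl hydroxylase genes PLOD1 and PLOD3 rose 1.89-fold and 1.57-fold. The 3 lower genes were scarce. The tolloid relatives of BMP1, TLL1 and TLL2, fell 4.09-fold and 2.79-fold, and PCOLCE2, a procollagen C-proteinase enhancer gene, had 2 and 5 reads in shp63 and 17 and 15 reads in shControl, 4.17-fold lower.

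Of 23 substrate genes 14 were tested, with 7 higher, 5 lower and 2 not called (median log2 fold change 0.12). The shares of all tested genes were 36.9% higher and 37.1% lower. FN1 (fibronectin) and COL5A1 rose 4.24-fold and 3.31-fold. FBN2 (fibrillin 2), COL7A1 and COL1A1 fell 2.70-fold, 1.80-fold and 1.40-fold. The proteoglycan genes VCAN, BCAN and DCN had 0 reads in every library, and so did COMP. Of 14 AP-1 and ETS factor genes 13 were tested, with 7 higher, 5 lower and 1 not called (median log2 fold change 0.31). The same shares of all tested genes stand beside these counts. JUN, FOS and the ETS gene ELF3 rose 2.80-fold, 2.04-fold and 2.27-fold, and ETS1, ETS2 and EHF fell 1.83-fold, 1.19-fold and 1.19-fold. AP-1 genes moved in both directions, since JUNB, JUND and FOSL2 were also higher, while FOSL1 fell 2.99-fold, to 2.13 CPM in shp63 against 6.37 CPM in shControl (adjusted p = 2.71e-11, edgeR), and FOSB fell 1.22-fold (adjusted p = 0.047, edgeR).

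**Figure D5:**
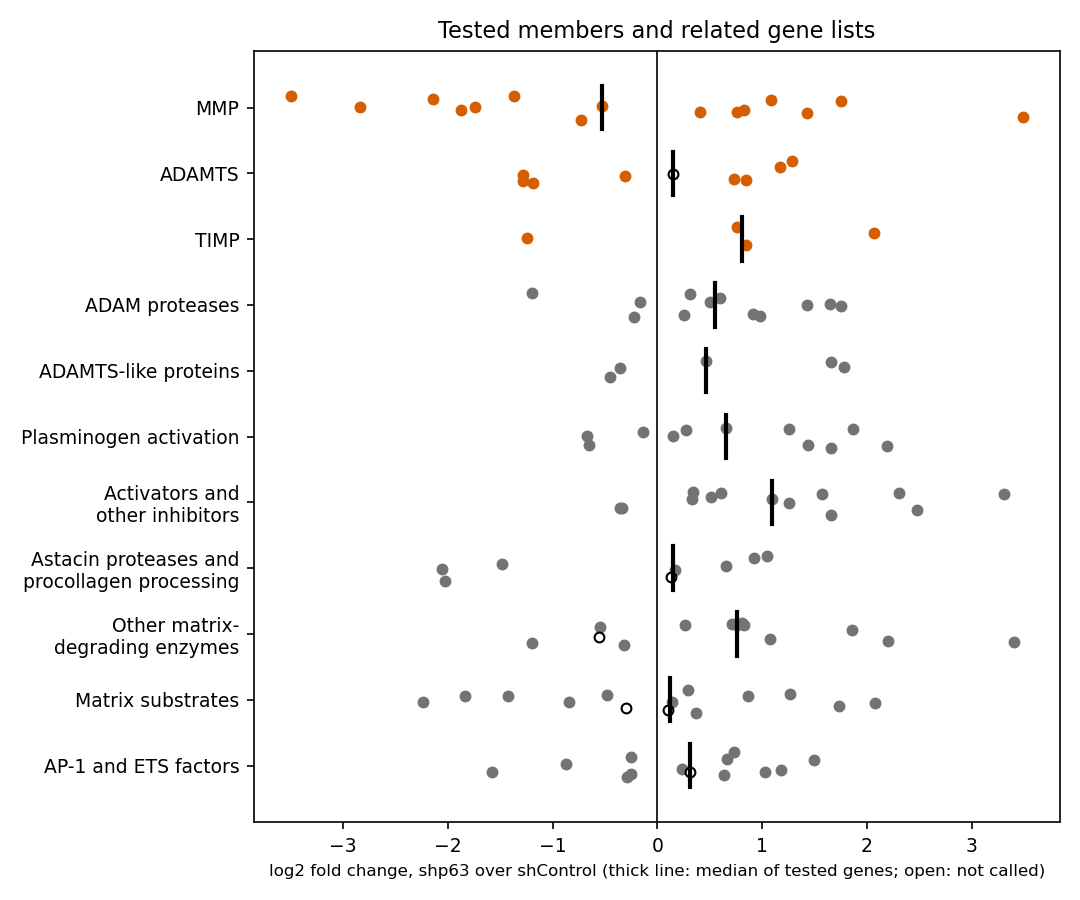
Log2 fold change of shp63 over shControl for each tested gene of the MMP, ADAMTS and TIMP families (orange) and of 8 related lists (grey), with the median as a thick line and genes not called as open circles. The mixed list of activators and other inhibitors has a median of 1.09 and the MMP genes a median of -0.53.

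Fibroblasts and leukocytes also make many of these proteases and inhibitors, so markers of other cell types were read in the same libraries. Summed fibroblast markers were at 93.7 and 86.0 CPM in shp63 and 112.5 and 117.8 CPM in shControl, nearly all from COL1A1 and FAP. DCN had 0 reads and LUM at most 1 read in a library. Summed leukocyte markers were at 85.2 and 81.6 CPM in shp63 and 16.3 and 14.8 CPM in shControl. Of 9 such markers 5 were tested, with CD14, CD68, CSF1R and LYZ higher and ITGAM lower, while PTPRC had 4 to 8 reads in each library and CD163 and MS4A1 had none. Summed endothelial markers were at 191.5 and 189.9 CPM in shp63 and 59.9 and 65.0 CPM in shControl, mostly from CDH5. Of 6 such markers 3 were tested, with CDH5 and PECAM1 higher by 3.31-fold and 1.81-fold and VWF 3.57-fold lower, while CLDN5 had no read and KDR no more than 1. Summed mesothelial markers were at 630.0 and 636.1 CPM in shp63 and 333.9 and 361.0 CPM in shControl, nearly all from MSLN and UPK3B, which were both higher in shp63, with ITLN1 at 0. The shares of all tested genes were 36.9% higher and 37.1% lower. Every library is labelled as the H226 cell line. The part of other cells in the protease and TIMP values was not tested.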

How the data were processed

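Polyadenylated RNA of 2 shp63 and 2 shControl cultures was analysed. The authors deposited raw read counts, as whole numbers, for each gene symbol. The authors aligned reads to GRCh37 with TopHat2 2.0.13 and counted them with HTSeq 0.6.1, per the series' design text and the submitters' processing notes. Their gene annotation and strand setting are not given in the sources used here.

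Counts were tested with edgeR 4.0.16 (R 4.3.3), with TMM factors, filterByExpr (minimum count 10, minimum total 15) and a robust quasi-likelihood fit of group over all 14901 genes kept. Adjusted p-values are Benjamini-Hochberg over these, with calls under 0.05. Standard errors come from the log2 fold change and F statistic. Positions and transcript lengths are from GENCODE v44 lifted to GRCh37.

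The members and lists were chosen with earlier results of these data known. Named genes are TP63, every tested member and, per list, up to 3 genes of smallest adjusted p per direction among called genes of at least 5 CPM; 2 of these are not reported here. Markers and other genes outside this rule were named after their values were seen. P-values reflect only the spread between 2 cultures of one group, which edgeR shares across genes. Alternatives were other scalings, filters, DESeq2 1.42.0, limma-voom (limma 3.58.1), a replicate block, a 1.5-fold test and each library left out.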

Additional observations from a re-analysis of the deposited data

How the results depend on the processing

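All 29 tested members kept their direction in every alternative in which they could be fitted, and none reversed. Leaving out each library in turn gave 25 to 28 called members (28 with all libraries), 10353 to 10548 called genes in all and 78 to 82 called genes of the related lists. The test against a 1.5-fold change called 3385 genes (1894 higher, 1491 lower in shp63), 20 members (9 higher, 11 lower) and 47 genes of the related lists (36 higher, 11 lower), where the test against no change called 11033, 28 and 84. The members it did not call were ADAMTS7, ADAMTS15, MMP11, MMP17, MMP19, MMP24, MMP28 and TIMP4. The estimates of ADAMTS7, MMP17 and MMP28 lay within 1.5-fold, and those of the other members lay beyond it. DESeq2 did not call ADAMTS17, MMP12, MMP19 and MMP24; the cause was not tested. A filter of 1 CPM in 2 libraries kept 22 members. ADAMTS3 was also called lower without a low-count filter (adjusted p = 0.0434, edgeR) and without shControl replicate 1 (adjusted p = 0.015), where 28 members were called, 14 in each direction, with MMP24 lost. Same-numbered libraries deviated oppositely (correlation -0.24), and the labels name no shared day, so the numbers were not taken as pairs. With the replicate block 28 members and 10858 genes were called, and with the numbers crossed, an alternative chosen after seeing the data, 28 and 11387. Apart from these, the calls on MMP12, MMP19 and MMP24 were each lost when 1 library was left out, and no other call on a tested member changed in the alternatives that fitted it.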
